A study of Caenorhabditis elegans with 2 samples.

Results

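The regions described here are the SCC-1 peaks on the X chromosome of Caenorhabditis elegans, taken as every peak of the deposited SCC-1 list whose chromosome is X. There were 508 of them among 6780 peaks in all. The list came from 1 chromatin immunoprecipitation (ChIP-seq) library of adult hermaphrodites of the strain fem-2(b245), genotype fem-2(b245)III, grown at 20 °C. It was sequenced beside 1 input DNA library of the same strain, stage and sex, whose signal was not analysed here. Both libraries carry the fem-2 allele, so no wild-type group stands beside them, and whole worms mix somatic and germline chromatin. The labels name a young adult stage while the growth protocol describes gravid animals, and the antibody, a rabbit polyclonal, is called affinity purified in one place and crude in another. The X peaks are the called regions of 1 library, so no spread between samples can be given and no test between conditions was made.

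SCC-1 is the kleisin subunit that closes the ring of the mitotic cohesin complex, which holds sister chromatids together from replication until anaphase and also shapes chromatin loops in interphase. The chromosomes of C. elegans are holocentric, so cohesin is not gathered at a single point centromere. In hermaphrodites both X chromosomes are bound by a dosage compensation complex built around a condensin, a relative of cohesin, and the X is largely silent in the germline for much of its development. The product of fem-2 is a phosphatase that acts in sex determination.

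On X, SCC-1 peaks were sparse over most of the chromosome, apart from a dense stretch at the left end. In 500 kb windows counted from base 1, the first window held 34 peaks, the second 28 and the third 56. The third, from 1000001 to 1500000, was the fullest window of X. The next fullest were the ninth and the thirtieth, from 4000001 to 4500000 and from 14500001 to 15000000, with 20 peaks each. Thus every window after the third held between 6 and 20 peaks, and each of the 36 windows held some.

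**Figure D1:**
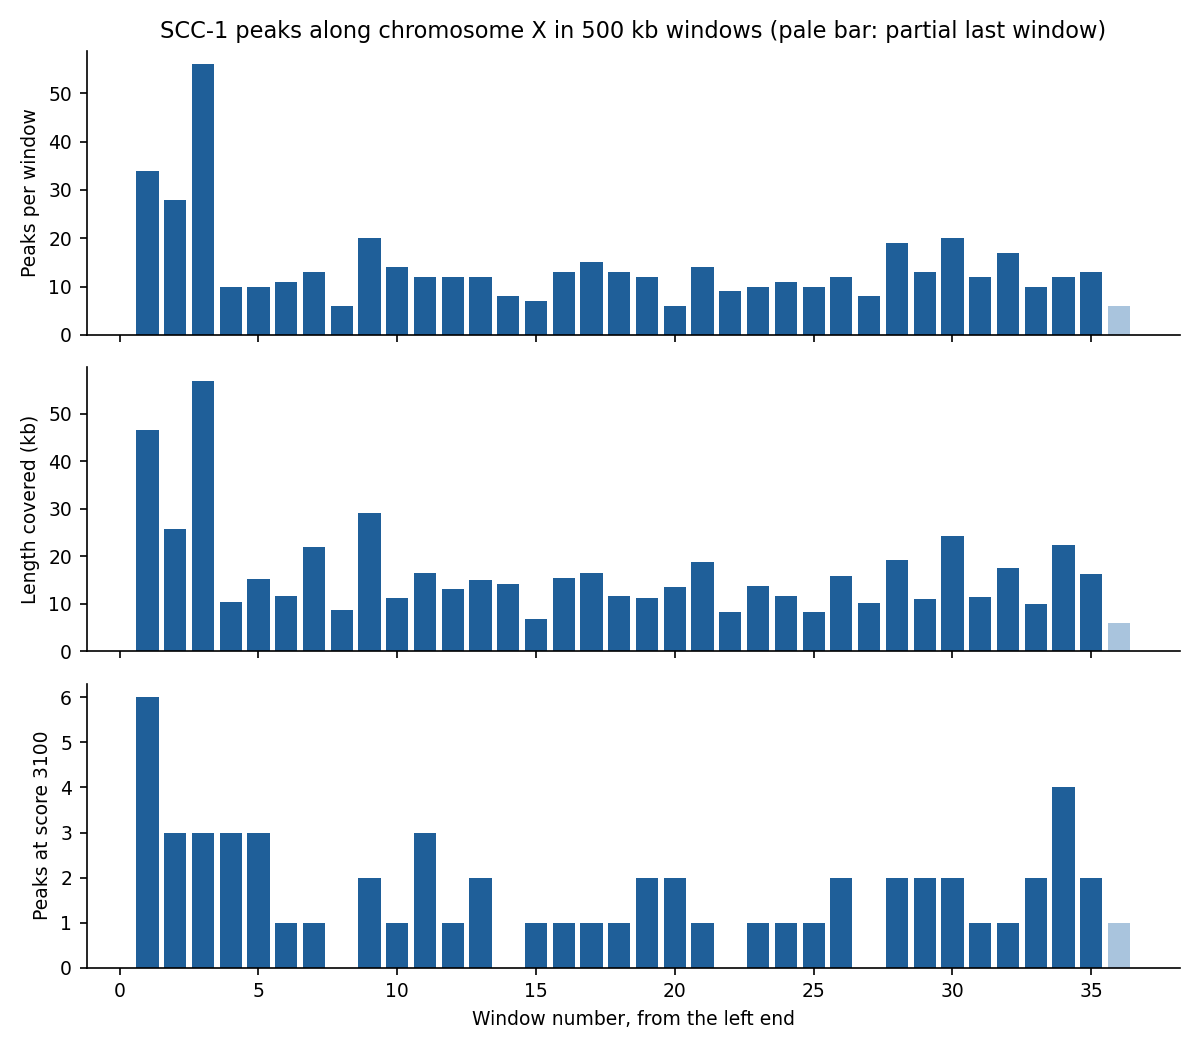
Peaks per 500 kb window (top), length covered by peaks in kb (middle) and number of peaks at a score of 3100 (bottom), against window number from the left end of X in the 1 SCC-1 library. The first 3 windows hold 34, 28 and 56 peaks, later windows hold 6 to 20, and the pale last window is 212 kb long.

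Among complete windows the emptiest were the eighth, from 3500001 to 4000000, and the twentieth, from 9500001 to 10000000, with 6 peaks each. The fifteenth, from 7000001 to 7500000, held 7, and the fourteenth and twenty-seventh, starting at 6500001 and 13000001, held 8 each. The last window, which ends with the last peak and is only 212 kb long, also held 6. The low windows were therefore scattered along X past its left end and did not form a single block.

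The 5 fullest windows held 158 peaks, or 31.1% of the X peaks, on 14.1% of its length. Because these windows were picked by their counts, the share is a description. Most of it came from the left end: the first 3 windows held 118 peaks, or 23.2% (exact Clopper-Pearson 95% interval 19.6% to 27.1%), on 8.47% of the length. Such intervals hold only the counting error and take each peak as independent of the others. The left end was known from earlier results of these data to be dense, so its share is a description too. The depth behind the peaks is unknown, since read counts were not analysed here.

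Past the third window the variance of the counts was close to their mean. The 32 complete windows there had a mean of 12 peaks and a variance of 12.4, a variance to mean ratio of 1.03. Peaks placed independently at an even density would have an average ratio of 1. A ratio near 1 in 500 kb windows does not show such placement and does not describe shorter distances. With the first 3 windows included, the ratio over the 35 complete windows of X was 5.88. The excess of variance over the mean on X at this scale thus lay mostly in its first 1.5 Mb.

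Over all complete windows of each autosome the ratio ran from 2.25 on chromosome III to 4.25 on chromosome II. When the 3 fullest windows were left out of each autosome, as they were for X, it ran from 1.81 on chromosome IV to 3.56 on chromosome II. Since this ratio rises with the mean, the variance beyond the mean was also divided by the squared mean. By that measure X without its 3 fullest windows had 0.0027, against 0.0174 on chromosome III to 0.0740 on chromosome II. With all complete windows the order was the opposite, 0.340 on X against 0.0249 on chromosome III to 0.0884 on chromosome II. No interval was computed for either measure, so these values do not set X apart from a single autosome. Leaving out the fullest windows was chosen after their counts were known, and it lowered each value here.

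Neighbouring windows of an autosome tended to have like counts, with Spearman's rho from 0.304 on chromosome IV to 0.444 on chromosome II. On X rho was 0.0899 over 34 neighbouring pairs, and -0.0335 over the 31 pairs after the third window. Pearson's r on X was 0.294 over the 34 pairs and -0.113 over the 31. No interval was computed, so X is not shown to differ from a single autosome here. All windows come from the same library, and these coefficients are given as a description.

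**Figure D2:**
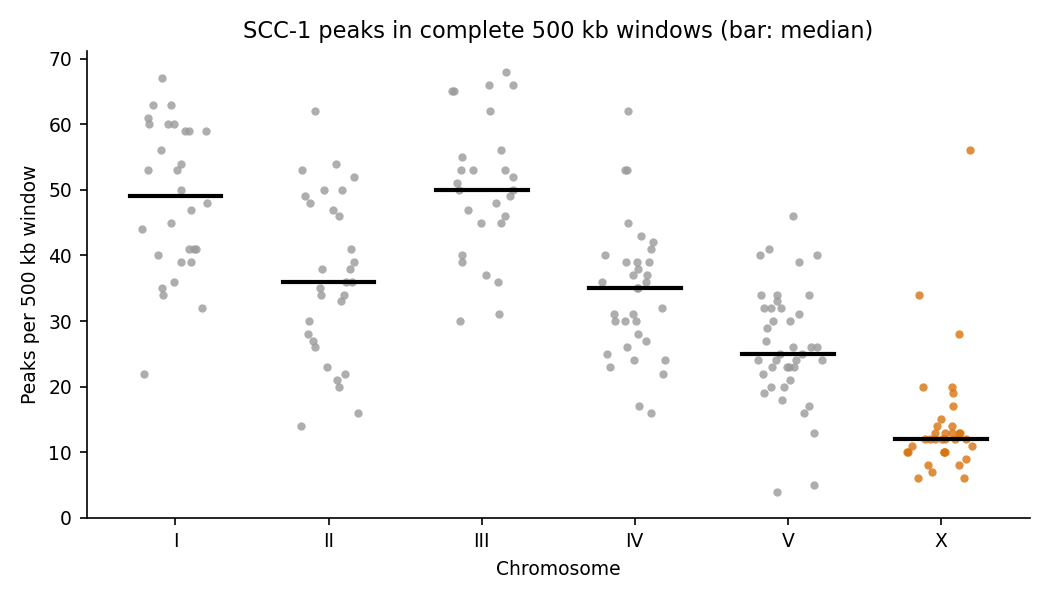
Peaks in each complete 500 kb window (1 point per window, bar at the median) by chromosome. The X median is 12, against 25 on V and 50 on III, and 3 X windows with 28, 34 and 56 peaks stand above the other 32, which hold 6 to 20.

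The low counts of X were rare elsewhere. Of 162 complete autosomal windows, 14, or 8.64%, held 20 peaks or fewer, and 9 of these lay on chromosome V. Only 2 autosomal windows held no more than the X median of 12. The left end of X sat inside the autosomal range: its second window, with 28 peaks, matched or exceeded 45 autosomal windows, and 18 autosomal windows held more than the 56 of the third window of X.

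Within the left end the peaks were themselves grouped. In steps of 100 kb the counts were highest from 1200001 to 1300000, with 16 peaks, from 1000001 to 1100000, with 15, and from 100001 to 200000 and 1300001 to 1400000, with 14 each. Between these stood a step with no peak, from 600001 to 700000, and a step with 1 peak, from 1100001 to 1200000. After 1500000 the counts fell to 3, 2 and 0 in successive steps. A gap of 172.8 kb then ran from 1683124 to 1855937, and it was the fifth longest of X.

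The peaks of the left end had median scores close to those of the rest of X, and a smaller share of them was 2 kb or wider, a difference that was not tested. The median score there was 275 (95% interval of the median from ranked values 226 to 368), against 270 (204 to 357) in the other windows. Scores are those of the authors' peak caller, on a scale that is not named, and serve here only to describe peaks of the same list. Median widths were 880.5 bp (814 to 1036) at the left end and 800 bp (785 to 829) elsewhere. Peaks of 2 kb or more made up 5 of 118 at the left end, or 4.24% (1.39% to 9.61%), and 43 of 390 elsewhere, or 11.0% (8.10% to 14.6%). Of the 118 peaks at the left end, 12, or 10.2%, had the highest X score, as had 48 of the other 390, or 12.3%. None of the 118 was 5 kb or wider, which with an exact upper bound of 3.08% does not separate it from the 7 of 390, or 1.79%, elsewhere.

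Most X peaks were narrow. Widths ran from 512 to 10955 bp with quartiles of 728, 817 and 1272 bp, and 10% of the peaks were wider than 1961.5 bp. Peaks under 1 kb made up 65.7% of those on X (exact 95% interval 61.4% to 69.9%). The same share was 34.2% over the autosomes and at most 36.7% on a single one, chromosome V. In length covered, the X peaks 2 kb or wider, 48 in number, supplied 27.6% of the total of 596 kb, whereas such peaks supplied 53.9% of the autosomal total.

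The narrowest X peak, 512 bp from 5518261 to 5518772 with a score of 55.1, stood alone at the edge of the longest gap. The next were 514 bp wide, from 14238192 to 14238705, with a score of 100.54, and 536 bp wide, from 172713 to 173248, with a score of 225.49. The last of these lay inside the largest group of peaks on X, described below.

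The 7 X peaks of 5 kb or more all had the score 3100, and none lay in the first 4 windows. The widest, from 16929142 to 16940096, measured 10955 bp and stood alone, with 56.2 kb free of peaks on its left and 195.4 kb on its right. The second, 7467 bp from 4141914 to 4149380, had 4 narrower peaks packed just to its left, the nearest at 394 bp. It was followed by peaks of 6282 bp from 9883635 to 9889916, 6024 bp from 12662722 to 12668745, and 5684 bp from 2057493 to 2063176. The last were 5299 bp wide, from 5101068 to 5106366, and 5022 bp wide, from 3111665 to 3116686. In all, 5 of the 7 were single peaks with more than 5 kb free on each side. The 7 together supplied 7.84% of the covered length of X. Just under the 5 kb limit came a peak of 4685 bp from 4472011 to 4476695, with a score of 1596.

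Scores on X stopped at 3100, a value shared by 60 peaks, or 11.8% (9.14% to 14.9%), beside 18.3% of all peaks in the list at that value or above. The next highest X scores were 2938, from 14169307 to 14170226, 2910, from 2242166 to 2243438, and 2907, from 181976 to 183640. The pile-up at 3100 means that the 60 cannot be ranked by score. The lowest score was 50.29, from 12860553 to 12861202, followed by 50.56, 50.88, 51.23 and 51.70 at peaks starting at 3536203, 13917937, 1260789 and 15246439. Scores under 100 made up 23.6% of the X peaks (20.0% to 27.6%) and 15.4% of the autosomal ones (14.5% to 16.3%).

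The 60 peaks with the highest score were spread thinly along X. They lay in 32 of the 36 windows, with 1 in each of 15 windows, 2 in 10 and 3 in 5. The first window held 6 of them and the thirty-fourth, which also holds the widest peak, 4. Windows 8, 14, 22 and 27 held none. Over complete windows the variance to mean ratio of their number was 0.90. Neighbouring members of the 60 were a median of 198 kb apart from midpoint to midpoint, 7.71 kb at the closest and 1.04 Mb at the farthest. Their widths ran from 923 to 10955 bp with a median of 1646 bp (1573 to 2030). Beyond the 7 already given, the 10 widest included peaks of 4335 bp from 5842608 to 5846942, 4239 bp from 7952609 to 7956847, and 3065 bp from 9605041 to 9608105. The last of these had over 135 kb free of peaks on each side.

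Width rose with score on X, with Spearman's rho of 0.733 over 508 peaks, close to the 0.738 to 0.782 of the single autosomes. Both values come from the same caller and library, so the relation is a description of the list. The median width was 704 bp below a score of 100, 874 bp from 200 to 500, 1038 bp from 1000 to 2000, and 1646 bp at 3100. The autosomal medians in those classes were 757, 1130, 1698.5 and 2968 bp, the last for scores of 3100 or more.

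Many X peaks with scores from 500, near the whole-list median of 493, to under 3100 were narrow. Among the 119 X peaks with scores from 500 to under 3100, 58, or 48.7% (39.5% to 58.1%), were under 1 kb wide. Over the autosomes 292 of 2019 such peaks were, or 14.5% (13.0% to 16.1%), and single autosomes ran from 12.5% on chromosome III to 17.1% on chromosome V. Of the 58 on X, 36 scored from 500 to 1000 and 22 from 1000 to under 3100. From 500 to 1000 the share under 1 kb was 56.25% on X and 20.4% over the autosomes. From 1000 to under 3100 it was 40% and 10.8%. Over peaks of all scores it was 65.7% and 34.2%, so X peaks were narrower in general. The class from 500 to under 3100 was defined after the plot of width and score had been seen, and the difference was not tested.

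These 58 narrow peaks had a median width of 829 bp, with quartiles of 792 and 871 bp, and were found in 29 of the 36 windows, with at most 6 in one. The highest scores among them were 2938, at the peak from 14169307 to 14170226 named above, and 2905, at a peak of 889 bp from 5952869 to 5953757. They were followed by 2550, from 13514055 to 13514983, and 2547, from 11521728 to 11522623. Of the 58, 10 lay in the first 3 windows. At the score of 3100, 3 X peaks were under 1 kb, from 1888136, 4711629 and 17543967.

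**Figure D3:**
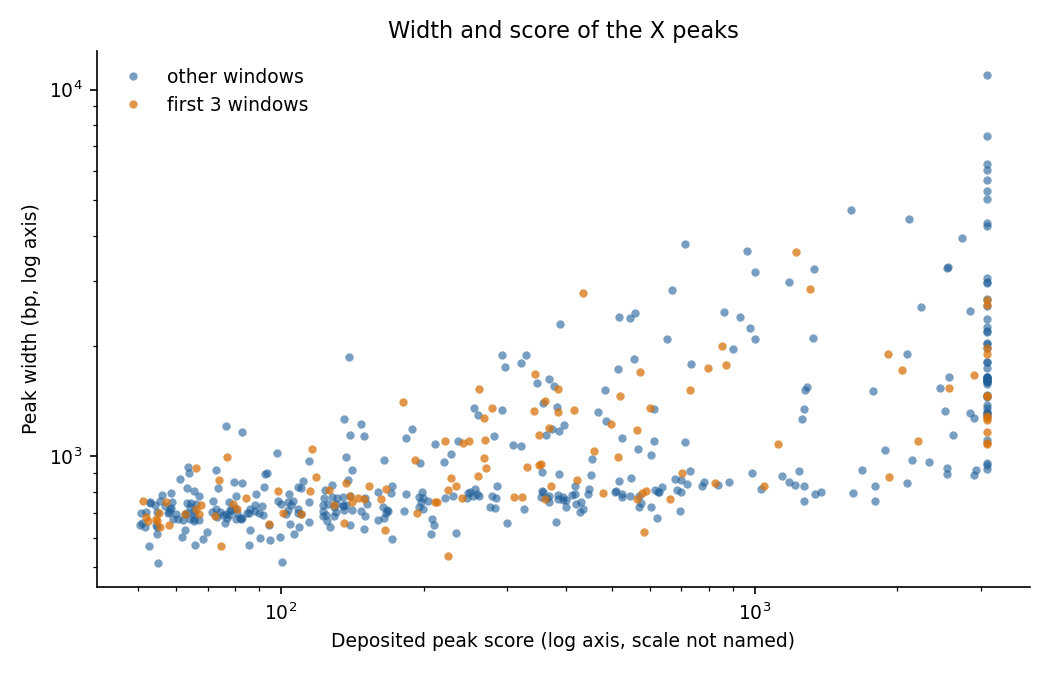
Width in bp against the deposited score for the 508 X peaks, both on log axes, with the 118 peaks of the first 3 windows in orange and the other 390 in blue. A band of peaks under 1 kb runs across scores up to 3100, all 7 peaks of 5 kb or more stand at 3100, and the 2 sets overlap.

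The space between X peaks was long and uneven. The 507 gaps, measured from edge to edge, had a median of 16.8 kb (95% interval 13.4 to 20.3 kb), with quartiles of 4.34 and 47.7 kb. The median was 4.72 kb on chromosome V, the sparsest autosome, and 3.31 kb over the autosomes. Within X it was 4.74 kb (3.31 to 7.25 kb) in the first 3 windows and 24.4 kb (19.7 to 29.4 kb) after them, so the median at the left end was close to that of chromosome V.

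Gaps of 100 kb or more numbered 47 on X, or 9.27% of its gaps (6.89% to 12.1%). They added up to 6.30 Mb, or 35.5% of the distance between the outermost peaks. Chromosome V had 30 such gaps, with 21.9% of its span, and chromosome IV 13, with 9.51%. On X, 46 of the 47 lay after the first 3 windows, and the exception ran for 109.0 kb from 593941 to 702987. Long gaps were met along the whole of the rest, with at most 3 starting in any window.

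The longest gap of X, 228.7 kb, ran from 5518773 to 5747448, between peaks with scores of 55.1 and 165. The second, 226.7 kb from 6841433 to 7068099, lay between narrow peaks with scores of 2102 and 1617. The third was 210.5 kb, from 3128184 to 3338700, and the fourth, 195.4 kb from 16940097 to 17135451, began at the widest X peak. The fifth is the one beyond the left end, and the sixth was 171.4 kb, from 16332335 to 16503739. Of the 94 peak edges that face a gap of 100 kb or more, 14, or 14.9% (8.39% to 23.7%), belonged to peaks at 3100 and 21, or 22.3%, to peaks with scores under 100. Both shares are near those over all X peaks, 11.8% and 23.6%.

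**Figure D4:**
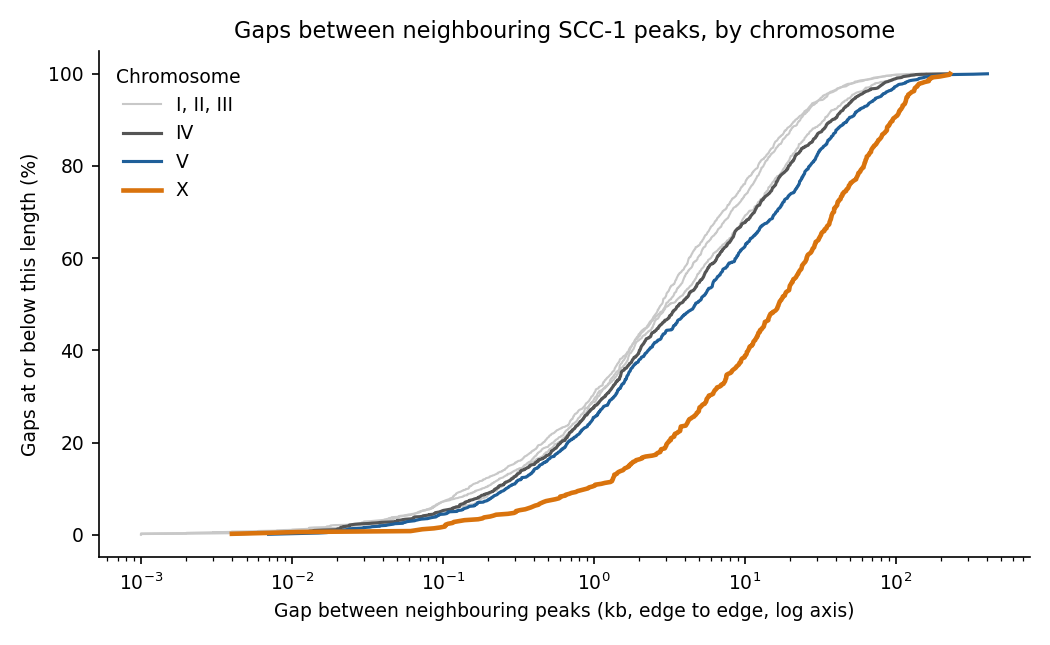
Share of gaps (%) at or below a given length (kb, log axis) for the 6 chromosomes. The X curve lies to the right of the others over most of its course, with a median gap of 16.8 kb against 4.72 kb on V and 3.69 kb on IV.

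Peaks were next grouped by linking neighbours with gaps of at most 5 kb. On X 284 peaks, or 55.9% (51.5% to 60.3%), stood alone, 114 formed pairs and 110, or 21.7% (18.1% to 25.5%), were in runs of 3 or more. On chromosome V 24.7% stood alone and 52.2% were in runs. A fixed linking distance favours runs where peaks are dense. When it was lengthened to 13.3 kb, in proportion to the lower density of X, 33.7% of the X peaks (29.6% to 38.0%) stood alone and 42.7% were in runs. The corresponding values over the autosomes at 5 kb were 19.5% and 62.0%. Of the 217 X peaks in runs at the longer distance, 93 lay in the first 3 windows. After the third window 31.8% of the X peaks were in such runs. The scaled distance was added after the data had been seen.

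There were 28 runs on X, of which 15 held exactly 3 peaks. They were between 4.93 and 24.1 kb long, with a median of 9.85 kb. The first 3 windows held 16 of them, with 67 of the 110 peaks in runs, and 21 windows held none. At the left end 56.8% of peaks (47.3% to 65.9%) were in runs, against 11.0% (8.10% to 14.6%) in the other windows. As the linking distance was the same for both parts, this difference in part restates the higher density of the left end, 78.7 peaks per Mb against 24.1.

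The largest run, from 160955 to 185045, held 10 peaks in 24.1 kb, 60.6% of which was covered. It included 2 peaks at 3100, from 160955 to 162214 and from 168307 to 170278, and 1 with a score of 2907. The other 7 scored between 116 and 1308, and widths within the run ran from 536 to 2857 bp. Strong and weak peaks therefore stood side by side in it. The second largest, from 1254891 to 1273067, held 7 peaks in 18.2 kb, with scores between 51.2 and 574 and none at 3100.

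Another 4 runs held 5 peaks each. The run from 4137223 to 4149380 was the most compact, with 92.3% of its 12.2 kb covered, and ends in the second widest X peak. In it, gaps of 305, 11, 225 and 394 bp separated peaks with scores of 486, 73.6, 115, 72.9 and 3100. The others ran from 15606540 to 15616880, with a highest score of 2099, from 1002730 to 1023183, and from 1445094 to 1454980. The closest pair of X peaks, 4 bp apart, lay in the last of these, from 1445094 to 1446552 and from 1446557 to 1447403. The next closest pairs were 7 bp apart, on either side of 10101583, and 11 bp apart, in the compact run. Of all neighbouring X peaks, 53 of 507 pairs, or 10.5%, lay within 1 kb of each other, against 28.5% on the autosomes. As the distance was the same for both, this difference in part restates the lower density of X.

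Most peaks with the highest score stood alone, as did most X peaks of any score. Of the 60 X peaks at 3100, 42, or 70%, stood alone, 10 were in pairs and 8 in runs. Over all X peaks 55.9% stood alone, 22.4% were in pairs and 21.7% in runs. The share at 3100 was 14.8% of single peaks (10.9% to 19.5%), 8.77% of paired peaks (4.29% to 15.5%) and 7.27% of peaks in runs (3.19% to 13.8%). The difference between these shares was not tested. The autosomes had the same order, with 21.3%, 19.8% and 17.7%. Median widths on X went the other way, with 792 bp for single peaks (775 to 808) and 985.5 bp for those in runs (878 to 1121). They did so on the autosomes too, with 1091.5 bp for single peaks and 1333.5 bp for those in runs. Only 7 of the 28 runs held a peak at 3100.

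**Figure D5:**
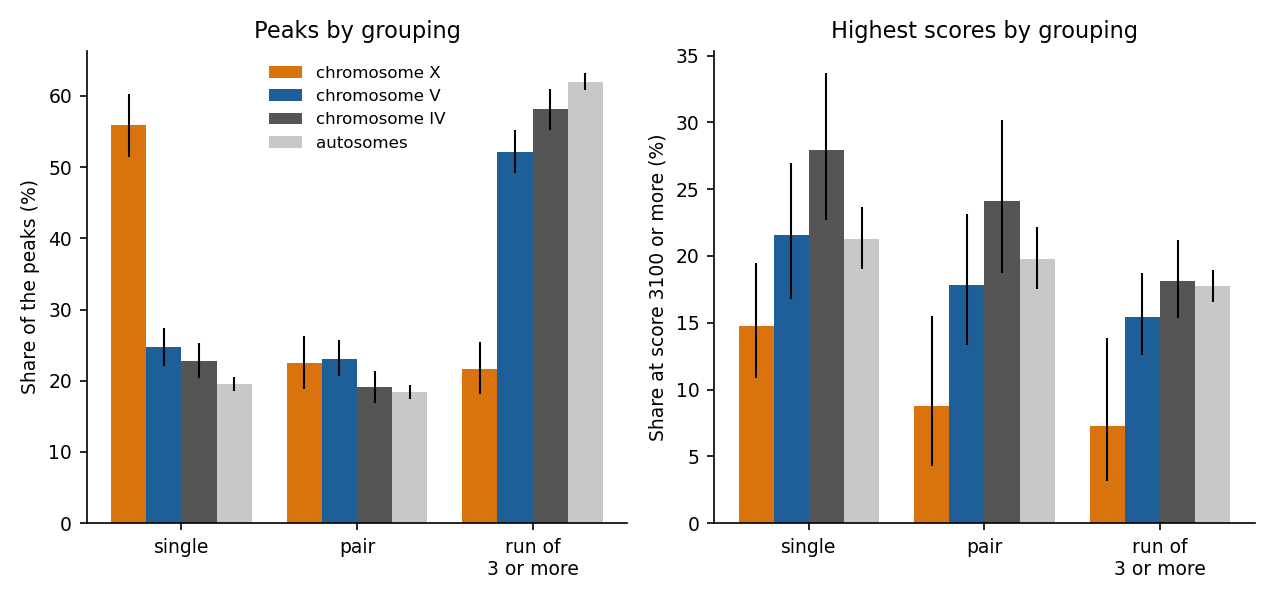
Share of peaks (%) that stand alone, form pairs or lie in runs of 3 or more at a linking distance of 5 kb (left), and share of each class with a score of 3100 or more (right), for X, V, IV and all autosomes. Bars start at 0 and lines are exact 95% intervals. On X 55.9% stand alone and 21.7% are in runs, against 24.7% and 52.2% on V.

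A peak stood at the left end of X. The distance from the last peak to the right end is not known, since no genome was used. The first peak began at base 1 and ended at 621, with a score of 585. The last ran from 17709977 to 17712220, was 2244 bp wide and had a score of 977. Both stood alone at the 5 kb distance, with 10.3 kb and 5.71 kb to their nearest neighbours.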

How the data were processed

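SCC-1 ChIP-seq and input DNA were each measured in 1 library. Per the labels' protocols, ground frozen worms were fixed with 1% formaldehyde for 10 min, the ChIP used 5 µg of antibody, and the input library was made from 10 ng. Per the submitters' processing notes, BWA was used and the build was ce10, and per the file headers peaks were called with MACS on WormBase WS220. No source used here gives the versions, the threshold or whether the input was used. The deposited file gives 1-based start and end positions and a score per peak, as the authors' peak caller wrote it. No genome or gene annotation of WS220 was used here, so no sequence or gene is given. 1 further file was not used, because its name gives another target.

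Peaks were placed in windows by midpoint. Spans run from the first to the last peak. Shares carry exact Clopper-Pearson intervals and medians the binomial interval of ranked values. Peaks are not replicates, so no p-value was computed. The functions were tested on simulated lists. The peaks, lists and limits were chosen with earlier results of these data known. All peaks of 5 kb or more were named, with the 10 widest at the highest score. So were the first and last peaks, the 5 lowest scores and the 3 narrowest. Also named were the 5 fullest and emptiest windows (6 with a tie), the 6 longest gaps, the 5 largest runs (6 with a tie) and the 3 closest pairs. Others named were chosen after their values were seen. Python 3.11.15, numpy 2.4.6, pandas 2.3.3, scipy 1.17.1 and matplotlib 3.10.9 were used.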

Additional observations from a re-analysis of the deposited data

How the results depend on the processing

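Under 20 of 41 alternatives the peak number stayed within 1.5 times, or another value within the interval of the value reported. The share of the span covered has no interval, and each of its 5 alternatives was counted as a change, however small. Among peaks at or above the median score of the whole list, 493, X had 180 peaks covering 1.80% of the span, with a median width of 1355.5 bp, a median gap of 65.9 kb and 4.44% of peaks in runs. With scores of 100 or more these values were 2.87%, 912.5 bp, 26.2 kb and 16.8%, on 388 peaks. Merging peaks up to 500 bp apart gave 3.41% covered and 17.2% in runs, and merging up to 1000 bp gave 3.48%, 13.8% and a median gap of 20.9 kb. Without the first 1.5 Mb, 2.88% of the span was covered, the median gap was 24.4 kb, 11.0% of peaks were in runs and the 5 fullest windows held 23.3%. Linking distances of 3 kb, 10 kb and 13.3 kb put 10.8%, 34.6% and 42.7% of peaks in runs. The values reported were 3.37% covered, 817 bp, 16.8 kb and 21.7% in runs. The shares of the first 3 windows (21.3% to 24.5%) and of the 5 fullest windows on other grids (28.0% and 33.7%) stayed within their intervals. No paired analysis was possible because the ChIP and input groups share only 1 replicate number and only the ChIP library has a peak list here. Since read counts were not analysed here, empty stretches and low depth cannot be told apart.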

Other observations

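Neighbouring X peaks did not resemble each other in strength or size. Spearman's rho between neighbours was -0.0058 for score and 0.0234 for width over 507 pairs. On the autosomes it lay between -0.0266 and -0.0035 for score and between 0.0356 and 0.0768 for width. These are descriptions within 1 library.

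Past the third window, X windows with more peaks had lower median scores, with Pearson's r of -0.36 and Spearman's rho of -0.44 over 32 windows. The number of peaks at 3100 followed the peak number less closely there, with r of 0.25 and rho of 0.24, than the covered length did, with r of 0.74 and rho of 0.69. Each pair of measures shares the same peaks and library.

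In steps of 100 kb, 20 of 177 complete steps of X held no peak, or 11.3% (exact 95% interval 7.04% to 16.9%). On chromosome V it was 20 of 208, or 9.62% (5.97% to 14.5%), although V had 1090 peaks against 508 on X. Per empty step X was thus not separated from V by the counting error, while its occupied steps held fewer peaks.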
